A study of Mus musculus with 12 samples.

Results

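The lysosomal hydrolases are the enzymes that break down protein, glycan, lipid and phosphate esters inside the lysosome. Their cofactors here are small proteins that bind lipids there. A list of 42 such genes, written from general knowledge, was read from an RNA-Seq count table of 24062 genes. It holds 13 proteases, 12 glycan hydrolases, 6 enzymes that remove sulfate or transfer acetyl groups, 7 lipid hydrolases, 1 phosphatase and 3 cofactors. The table covers mouse embryonic fibroblasts (MEFs) expressing either shRenilla, a control short hairpin RNA, or shBruce, a hairpin against Birc6, the gene of the giant ubiquitin ligase BRUCE. Both lines were kept in full medium (FM) or starved (Starv) for 2 h in medium without serum and amino acids, which gave 4 conditions with 3 replicate libraries each. The shBruce MEFs carry 1 hairpin, so an effect of lower Birc6 and any other effect of that hairpin cannot be told apart. The labels do not say whether replicates came from separate cultures, and p-values then measure only the spread between these libraries.

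Lysosomal hydrolases are made in the endoplasmic reticulum, most of them receive a mannose 6-phosphate tag in the Golgi, and receptors for the tag carry them to endosomes. They work at the acid pH of the lysosome, many become active after cleavage, and their loss causes lysosomal storage diseases. In autophagy they digest the content of autophagosomes after these have fused with lysosomes, and many of their promoters hold an E-box element that is bound by the transcription factor TFEB and its relatives.

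Total counts were 7717265 to 14778105 in shBruce Starv and 14283861 to 18510540 in the other conditions, and shBruce Starv replicate 1 was the shallowest library. Birc6 had 4682, 3273 and 5061 normalized counts (counts scaled to a common library size) in shRenilla FM, 4759, 4712 and 2787 in shRenilla Starv, 1207, 1265 and 1390 in shBruce FM, and 1175, 703 and 1226 in shBruce Starv. It was lower in shBruce MEFs without overlap between libraries, by edgeR's test with a log2 fold change of -1.75 in FM (adjusted p = 0.0627) and -1.98 in Starv (adjusted p = 0.0186). Fibroblast markers summed to 130241 to 198531 normalized counts over 10 genes, although Thy1 was at or near 0 and Dcn was at 6.94 to 50.5. The macrophage markers, which matter here because macrophages are rich in hydrolases, summed to 195 to 343 over 11 genes. The highest of them were Cd14 (70.1 to 179) and Cd68 (58.5 to 132), and Aif1 was at 0 in every library.

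Promoter windows from RefSeq (GRCm38, 250 bases before to 50 bases after the gene's start) were found for 35 of the 42 genes, as 38 windows. The E-box CACGTG, which reads the same on both strands, was present in 12 of the 38 windows (31.6%), compared with 7.15% of all 32851 windows and 10.0% of the windows of genes tested here. The longer TCACGTG, searched on both strands and always containing the E-box, was present in 10 (26.3%), compared with 3.77% of all windows and 5.95% of those of genes tested. The genes with CACGTG were Arsa, Ctsa, Ctsd, Ctsf, Ctsl, Dpp7, Gaa, Gla, Glb1, Lgmn, Naglu and Sgsh, and all of them except Ctsf and Ctsl also held TCACGTG. Of the 12 genes with a window that passed the test after starvation in at least 1 line, 6 held CACGTG, as did 6 of the 23 that did not. These letters describe the windows and were not tested as binding sites.

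The stretches with the E-box in capitals are shown for 5 of the 6 called genes that hold one, each 120 bases long, 5′ to 3′ in the direction of the gene, from GRCm38. They lie at chr2:25356333-25356452 (minus strand) for Dpp7, chrX:134601136-134601255 (minus) for Gla, chr11:119355511-119355630 (minus) for Sgsh, chr11:101069974-101070093 (plus) for Naglu and chr19:4855045-4855164 (plus) for Ctsf.
Dpp7: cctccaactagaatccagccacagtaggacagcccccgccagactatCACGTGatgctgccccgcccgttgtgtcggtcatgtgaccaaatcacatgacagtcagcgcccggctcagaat
Gla: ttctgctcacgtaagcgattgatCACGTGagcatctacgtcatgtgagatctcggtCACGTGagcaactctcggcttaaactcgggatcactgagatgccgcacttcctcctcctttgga
Sgsh: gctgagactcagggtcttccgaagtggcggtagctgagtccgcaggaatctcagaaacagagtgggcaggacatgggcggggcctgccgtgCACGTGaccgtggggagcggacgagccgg
Naglu: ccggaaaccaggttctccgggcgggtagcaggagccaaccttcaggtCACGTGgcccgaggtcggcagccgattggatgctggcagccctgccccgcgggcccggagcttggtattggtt
Ctsf: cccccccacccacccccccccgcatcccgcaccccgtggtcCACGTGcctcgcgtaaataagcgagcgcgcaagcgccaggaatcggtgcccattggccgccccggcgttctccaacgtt
The E-box began 73 bases before the RefSeq start in Dpp7, 29 in Sgsh, 73 in Naglu and 79 in Ctsf. Gla had a pair of them, 227 and 194 bases before the RefSeq start. Starts differ between annotations. In GENCODE M21 the start of Naglu (101070012) lies before its E-box, and that of Sgsh (119355536) lies within its E-box. Ctsa, which is not shown, had an E-box on each side of a RefSeq start, in the window chr2:164833523-164833822. Its other window, chr2:164832622-164832921, spans its GENCODE M21 start (164832873) and held no match. The window of Idua, the fifth gene that rose in both lines, held no match.

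All 42 genes passed the filter on low counts, and together they took 0.509% to 0.685% of the counts of a library. Levels compared between genes are normalized counts per kilobase of transcript, averaged over the 12 libraries. Psap, the precursor of the saposins that activate sphingolipid hydrolases, had the highest level at 5110, followed by the proteases Ctsd (3843), Scpep1 (3042), Ctsl (2747) and Ctsb (2687). The lowest levels were those of Ctsk (8.05), Ctso (12.9), Manba (21.1), Ctsf (22.9) and Idua (30.3). The median was 276, compared with 172 over 12051 genes tested that have a transcript length, and 30 of the 42 genes lay above the latter. These means pool conditions that differ, and the order within both groups was not the same in each condition. In shBruce Starv, Ctso (10.1) was below Ctsk (13.5), in shRenilla FM Ctsf (16.2) and Idua (21.7) were below Manba (24.4), and in shBruce FM Scpep1 (2610) was below Ctsl (2650) and Ctsz (2810), a gene with a mean of 2656. The highest 5 genes took 49.9% to 54.9% of the summed normalized counts of the 42.

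**Figure D1:**
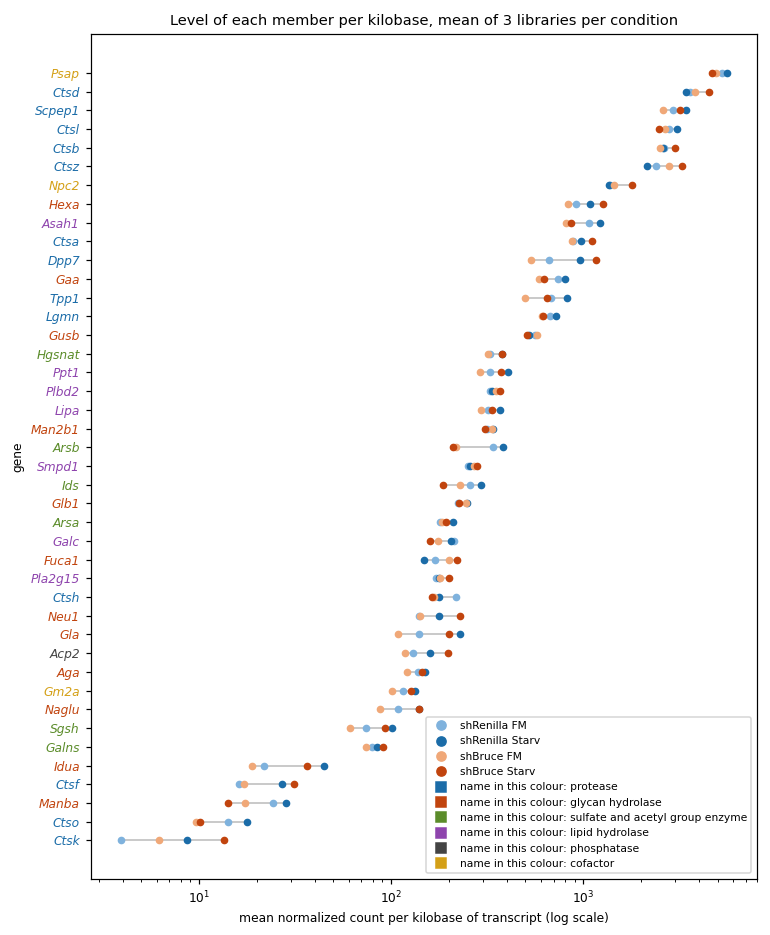
Mean normalized count per kilobase of transcript (x axis, log scale) of each of the 42 genes (y axis) in the 4 conditions, with points as means of 3 libraries, grey lines joining the lowest and highest condition and gene names coloured by role. Levels run from 8.05 for Ctsk to 5110 for Psap over all libraries, and the conditions of most genes lie close together on this scale.

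Starvation of control cells asks how hydrolase genes respond to 2 h without serum and amino acids. In shRenilla MEFs, 5 of the 42 genes rose and none fell, in edgeR's quasi-likelihood test with p-values adjusted by Benjamini-Hochberg across the 12154 genes that passed the filter. Over all genes, 9.69% were called higher and 7.27% lower, so the 5 genes (11.9%) called higher are a share near that of the whole table. The median log2 fold change of the 42 genes was 0.17, compared with -0.01 over all genes tested, and 34 of the 42 lay above 0 (81.0%, compared with 49.5% of all genes). In these bulk libraries a change in the number of cells expressing a gene and a change in its RNA per cell cannot be told apart. All 3 Starv libraries lay above all 3 FM libraries for 22 of the 42 genes, against 25.9% of all genes, and below them for 1, Ctsh, against 26.5%.

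In shBruce MEFs, 12 of the 42 genes rose (28.6%) and none fell, while 12.4% of all genes were called higher and 10.6% lower. The median log2 fold change was 0.23, compared with 0.02 over all genes tested. The Starv libraries lay above the FM libraries without overlap for 16 genes, against 16.2% of all genes, and below them for 1, Gusb, against 14.8%. The 5 genes that rose in shRenilla MEFs, Dpp7, Gla, Idua, Ctsf and Sgsh, were among the 12 (5 of 5 and 5 of 12), and the others were Acp2, Neu1, Naglu, Hexa, Tpp1, Ppt1 and Ctsa.

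**Figure D2:**
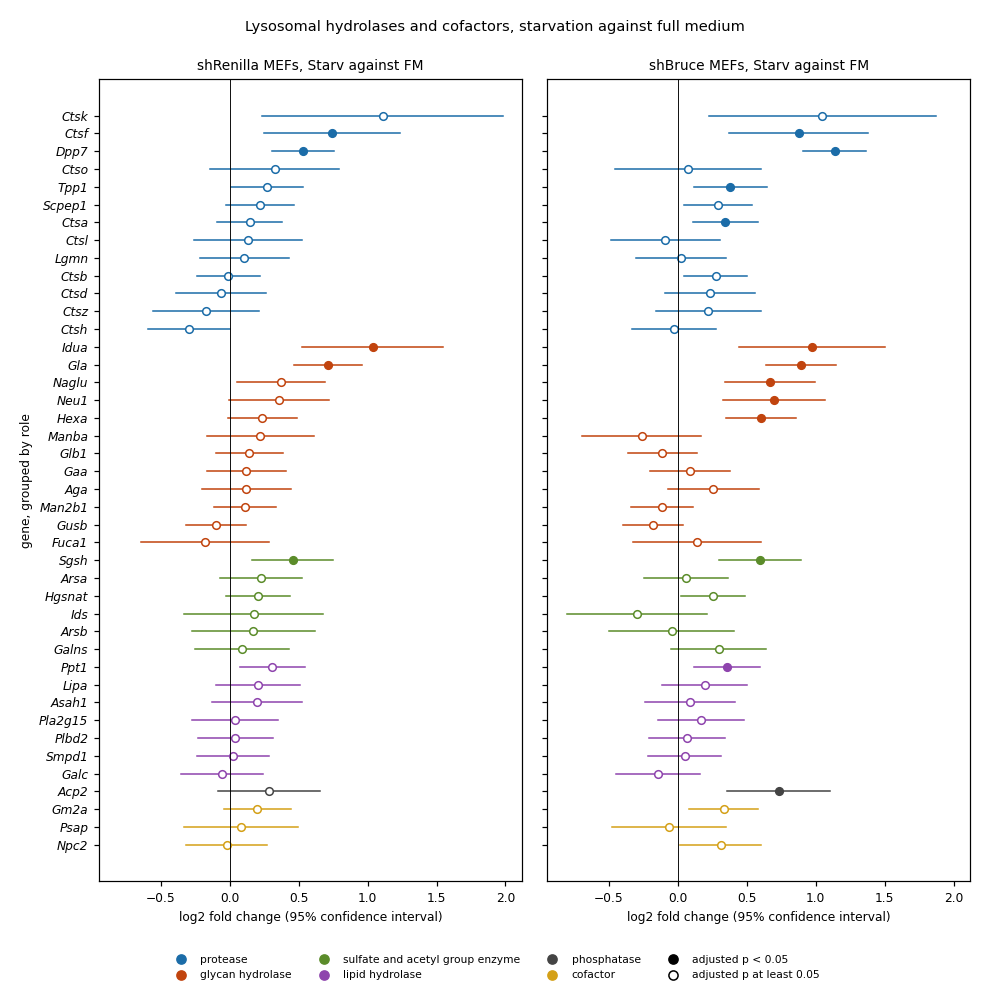
Log2 fold change of Starv against FM (x axis) with its 95% confidence interval for the 42 genes (y axis), grouped and coloured by role, in shRenilla MEFs (left) and shBruce MEFs (right), where filled points passed an adjusted p of 0.05. The 5 filled points on the left and the 12 on the right all lie above 0.

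Dpp7, a dipeptidyl peptidase that cleaves after proline, had 1086, 1175 and 1094 normalized counts in shRenilla FM and 1625, 1521 and 1714 in shRenilla Starv. In shBruce MEFs it had 856, 976 and 849 in FM and 1916, 1928 and 2045 in Starv. Starved libraries were higher than all FM libraries in both lines, the highest values being those of shBruce Starv. The log2 fold change by edgeR was 0.53 (standard error 0.10, adjusted p = 0.00359) in shRenilla MEFs and 1.14 (standard error 0.11, adjusted p = 1.35e-05) in shBruce MEFs, a 1.45-fold and a 2.20-fold rise.

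Gla, the alpha-galactosidase that is lacking in Fabry disease, had 446, 421 and 461 normalized counts in shRenilla FM and 691, 736 and 748 in Starv. Its shBruce libraries had 341, 358 and 329 in FM and 575, 711 and 617 in Starv. The libraries did not overlap between media in either line. The rise was 1.64-fold in shRenilla MEFs (log2 fold change 0.71, standard error 0.12, adjusted p = 0.00100) and 1.85-fold in shBruce MEFs (0.89, standard error 0.12, adjusted p = 0.000206). Dpp7 and Gla passed in both lines under all 23 alternative settings, which included leaving out each library.

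Idua, the iduronidase that acts on heparan sulfate and dermatan sulfate, had 81.6, 73.6 and 75.3 normalized counts in shRenilla FM and 153, 146 and 174 in Starv, a 2.05-fold rise (log2 fold change 1.04, standard error 0.24, adjusted p = 0.00889). In shBruce MEFs it had 73.3, 67.0 and 58.5 in FM and 98.9, 95.0 and 190 in Starv, so that replicate 3 stood above the other Starv libraries. The log2 fold change there was 0.97 (standard error 0.25, adjusted p = 0.0124), and without shBruce Starv replicate 3 it was 0.54 (adjusted p = 0.0303). Sgsh, the sulfatase that removes N-linked sulfate from heparan sulfate, had 298, 318 and 349 in shRenilla FM, 448, 451 and 425 in shRenilla Starv, 242, 269 and 291 in shBruce FM, and 375, 360 and 475 in shBruce Starv. Its Starv libraries were above the FM libraries in both lines, with log2 fold changes of 0.46 (standard error 0.14, adjusted p = 0.0354) and 0.60 (standard error 0.14, adjusted p = 0.00785).

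Ctsf, a cysteine protease of the papain type, was a gene of low counts, with 24.5, 33.9 and 37.6 in shRenilla FM and 51.9, 44.1 and 64.7 in shRenilla Starv. It had 34.0, 33.5 and 34.7 in shBruce FM and 48.4, 69.4 and 66.9 in shBruce Starv. The media did not overlap, with log2 fold changes of 0.74 (standard error 0.23, adjusted p = 0.0401) and 0.87 (standard error 0.23, adjusted p = 0.0165). Ctsk, the collagen-degrading cathepsin best known from osteoclasts, had lower counts still, from 4.90 to 28.3 per library, and its log2 fold changes of 1.11 (adjusted p = 0.0767) and 1.05 (adjusted p = 0.0650) did not pass.

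Acp2, the lysosomal acid phosphatase, had 588, 546 and 520 normalized counts in shBruce FM and 1243, 726 and 789 in shBruce Starv, with replicate 1 well above the others. Its log2 fold change was 0.73 (standard error 0.17, adjusted p = 0.00871), and 0.44 without that replicate (adjusted p = 0.00926). In shRenilla MEFs it had 636, 565 and 618 in FM and 725, 749 and 741 in Starv, and a log2 fold change of 0.28 did not pass (adjusted p = 0.282). The other genes past the threshold in shBruce MEFs were the glycan hydrolases Neu1, a sialidase (0.70), Naglu, which removes N-acetylglucosamine from heparan sulfate (0.67), and Hexa, the alpha subunit of beta-hexosaminidase (0.60), the proteases Tpp1 (0.38) and Ctsa (0.34), and Ppt1, which removes palmitate from proteins (0.35). Hexa passed in all 23 alternatives and Neu1 and Naglu in 22, but Ctsa in 12, Ppt1 in 11 and Tpp1 in 9. In shRenilla MEFs these 6 had log2 fold changes of 0.14 (Ctsa) to 0.38 (Naglu), with adjusted p from 0.0697 to 0.390.

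**Figure D3:**
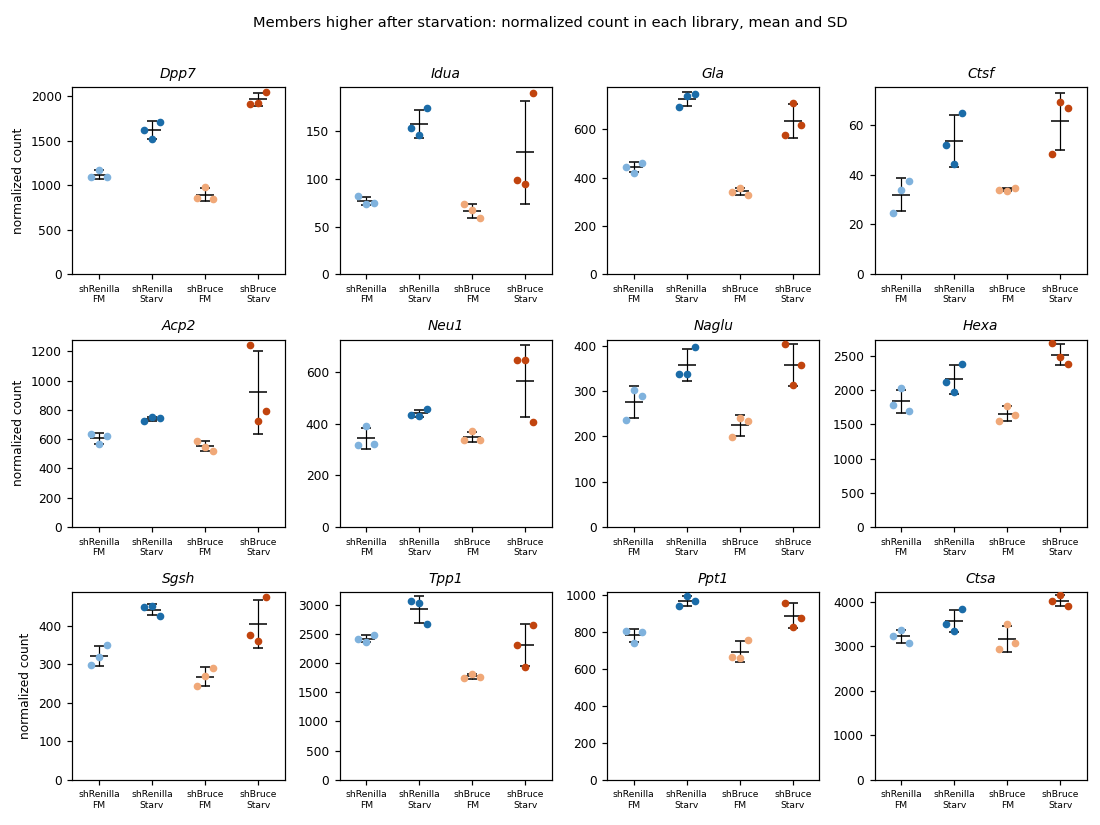
Normalized count (y axis, from 0) in each of the 12 libraries (points) for the 12 genes that passed after starvation in shBruce MEFs, ordered by log2 fold change, with the mean and SD of each condition in black. In shBruce MEFs the Starv points lie above the FM points for all 12, and single libraries stand apart in shBruce Starv for Idua (190) and Acp2 (1243).

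Counts by role were small. Among proteases, 2 of 13 rose in shRenilla and 4 of 13 in shBruce MEFs, and among glycan hydrolases 2 and 5 of 12, against 9.69% and 12.4% of all genes called higher. Of the sulfate and acetyl group enzymes, Sgsh was called in both lines and the other 5 in neither. Of the lipid hydrolases, none of 7 passed in shRenilla and 1, Ppt1, in shBruce MEFs. The cofactors did not pass, with log2 fold changes of -0.02 to 0.20 in shRenilla and -0.06 to 0.33 in shBruce MEFs. The 5 most abundant genes were not among those called in either line. Psap had 13081, 15211 and 13724 in shRenilla FM against 14812, 13933 and 15635 in Starv (log2 fold change 0.08, 95% confidence interval -0.33 to 0.49), and Scpep1 had 0.22 (-0.02 to 0.47), Ctsd -0.06 (-0.39 to 0.27), Ctsb -0.01 (-0.24 to 0.22) and Ctsl 0.13 (-0.26 to 0.53). In shBruce MEFs the log2 fold change was -0.06 for Psap (-0.48 to 0.35), 0.29 for Scpep1 (0.05 to 0.54), 0.23 for Ctsd (-0.10 to 0.56), 0.27 for Ctsb (0.05 to 0.50) and -0.09 for Ctsl (-0.48 to 0.30). The Starv libraries lay above the FM libraries without overlap for Scpep1 and Ctsl in shRenilla and for Ctsb in shBruce MEFs, and the adjusted p of Ctsb and Scpep1 in shBruce MEFs was 0.0778 and 0.0816 in edgeR's test.

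The count depended on the libraries and on the fit. In shRenilla MEFs it was 3 (Dpp7, Gla and Idua) when shBruce FM replicate 2 or any 1 of the 6 shRenilla libraries was left out, and 8 without shBruce Starv replicate 1. The share of all genes called is not given here for the fits that left out a library. A changed count in them is therefore not shown to be particular to the hydrolase genes. With only the libraries of the conditions compared in the fit, it was 15 in shRenilla (14 higher, and Ctsh lower), where that fit called 41.9% of all genes, and 3 in shBruce MEFs (Dpp7, Gla and Hexa), where it called 8.11%.

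Whether the starvation response differed between the lines was asked with the interaction of line and medium. No gene passed, 0% of all genes tested by edgeR, and DESeq2 and limma-voom also called 0 of the 42. At an unadjusted p under 0.05 there were 2 of 42 (4.76%), compared with 3.9% of all genes. The larger rise of Dpp7 in shBruce MEFs had an interaction of 0.60 on the log2 scale (95% confidence interval 0.28 to 0.92), with an adjusted p of 0.806 (0.00130 unadjusted) in edgeR's test. The interaction was 0.37 for Hexa (unadjusted p = 0.0426 from edgeR's test), 0.28 for Ctsb (0.0784), -0.48 for Manba (0.0954), -0.26 for Glb1 (0.137) and -0.22 for Man2b1 (0.152), all with an adjusted p of 0.806. The 7 genes that passed in shBruce MEFs alone are therefore not shown to differ between lines in their response.

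The comparison of shBruce with shRenilla MEFs in FM asks whether hydrolase genes differ when Birc6 is low and nutrients are present. In edgeR's test 0 of the 42 genes passed, as did 0% of all genes tested, and DESeq2 and limma-voom likewise called 0 of the 42. At an unadjusted p under 0.05, 9 of the 42 were lower and 0 higher, compared with 8.23% and 6.17% of all genes. The median log2 fold change was -0.13, compared with 0.01 over all genes. All shBruce libraries lay below all shRenilla libraries for 11 of the 42 genes, against 17% of all genes, and above them for none, against 16.4%.

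The 3 lower genes with the smallest unadjusted p were Tpp1, Gla and Arsb. Tpp1, a tripeptidyl peptidase lost in a childhood form of Batten disease, had 2418, 2363 and 2477 normalized counts in shRenilla FM and 1738, 1812 and 1760 in shBruce FM. Each line was tight and the lines did not overlap, but the difference of -0.45 on the log2 scale (95% confidence interval -0.71 to -0.19) had an adjusted p of 0.254 in edgeR's test. The values were -0.37 for Gla and -0.65 for Arsb, both with an adjusted p of 0.297. The higher genes with the smallest unadjusted p were Ctsk (0.65), Ctsz (0.22) and Fuca1 (0.24), with adjusted p from 0.464 to 0.574. With sample quality weights in limma-voom, 14 of the 42 genes passed, 13 lower and Ctsz higher, in a fit that called 30.4% of all genes. With the 6 FM libraries fitted alone, 2 of the 42 passed, Arsb and Tpp1, both lower, as did 5.11% of all genes.

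**Figure D4:**
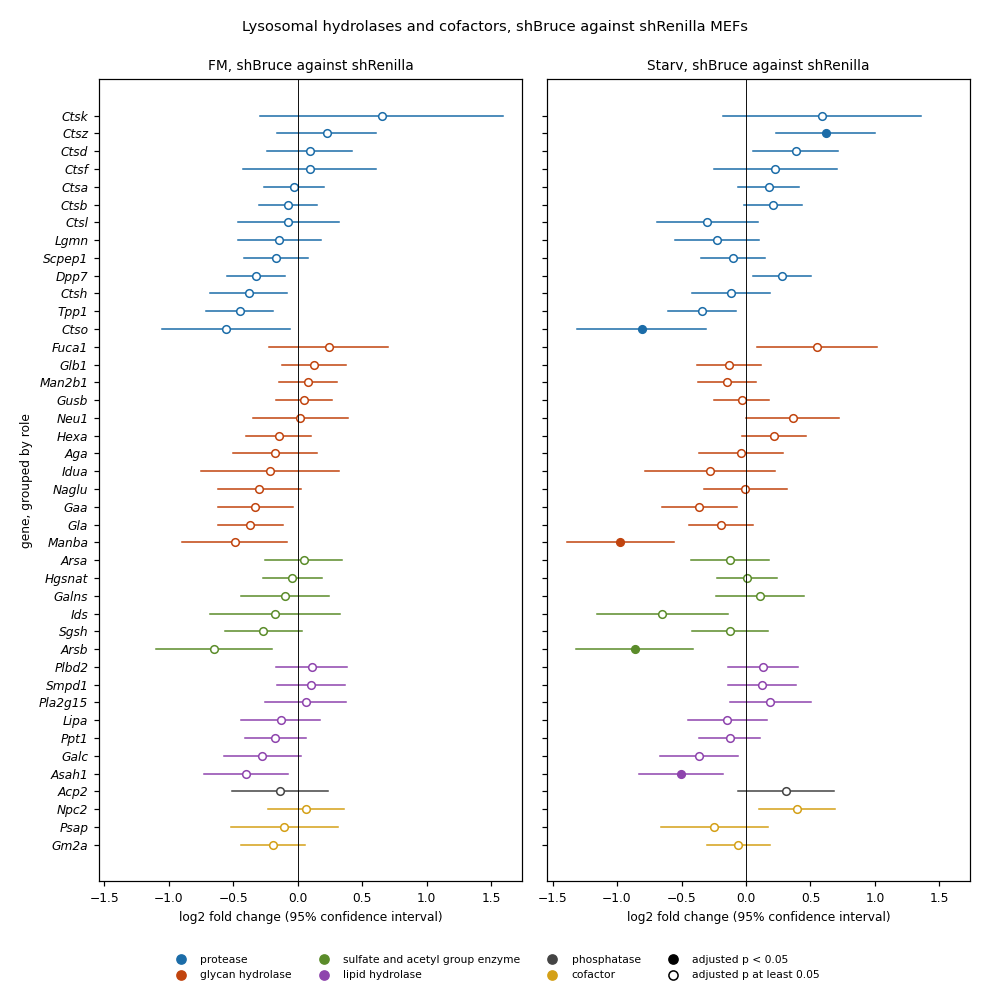
Difference of shBruce from shRenilla MEFs as log2 fold change (x axis) with its 95% confidence interval for the 42 genes (y axis), grouped and coloured by role, in FM (left) and in Starv (right), where filled points passed an adjusted p of 0.05. No point is filled in FM, and in Starv 4 filled points lie below 0 and 1 above.

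Between the starved lines, 5 of the 42 genes passed, with Ctsz higher (2.38%) and 4 genes lower (9.52%) in shBruce cells, while 12.8% of all genes were called higher and 11.2% lower. The shares of the 42 genes were thus not above those of the whole table. The libraries did not overlap for 5 genes higher, against 16.4% of all genes, and 9 genes lower, against 18.5%. The median log2 fold change was -0.08, compared with -0.00 over all genes tested. These calls rest on shBruce Starv, the condition with the widest spread, where the median range between replicates over the 42 genes was 0.39 on the log2 scale, compared with 0.16 in both shRenilla conditions and 0.26 in shBruce FM.

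Manba, the beta-mannosidase that removes mannose from N-glycans, had 109, 96.1 and 109 normalized counts in shRenilla Starv and 40.4, 55.5 and 60.4 in shBruce Starv. Arsb, the sulfatase of dermatan sulfate and chondroitin sulfate, had 1664, 1600 and 1375 in shRenilla Starv and 620, 700 and 1219 in shBruce Starv, where replicate 3 was nearest to the control libraries. The log2 fold changes were -0.97 for Manba (standard error 0.19, adjusted p = 0.0225) and -0.86 for Arsb (standard error 0.21, adjusted p = 0.0234). Both were also lower in FM without overlap between libraries, as were 17% of all genes. The values were 60.5, 76.4 and 54.5 against 98.8, 83.0 and 86.9 for Manba, and 934, 912 and 784 against 1423, 1207 and 1494 for Arsb. Neither gene passed in FM by edgeR's test (adjusted p = 0.308 for Manba and 0.297 for Arsb).

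Ctso, a cysteine protease of low counts, had 63.0, 61.4 and 60.9 in shRenilla Starv and 30.3, 43.7 and 30.7 in shBruce Starv (log2 fold change -0.81, standard error 0.23, adjusted p = 0.0296). Asah1, the acid ceramidase, had 3444, 3525 and 3231 against 2087, 2358 and 2733 (-0.51, standard error 0.15, adjusted p = 0.0330). Ctsz, a cathepsin that trims single residues from the carboxyl end, was higher in shBruce MEFs, with 2858, 2851 and 3514 in shRenilla Starv and 5472, 5060 and 3634 in shBruce Starv (0.62, standard error 0.18, adjusted p = 0.0302). For all 3 genes the starved lines did not overlap, though shBruce Starv replicate 3 of Ctsz (3634) lay close to the highest control library (3514).

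**Figure D5:**
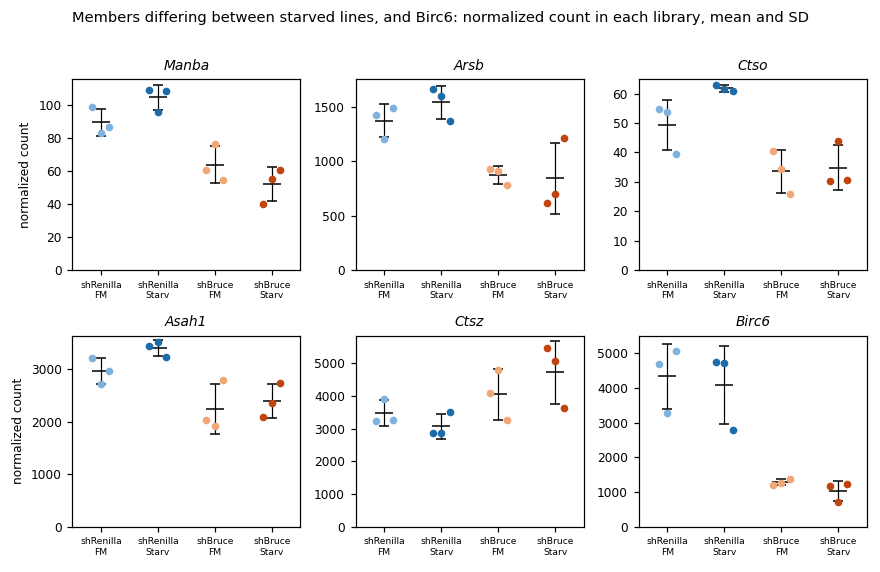
Normalized count (y axis, from 0) in each of the 12 libraries (points) for the 5 genes that passed between the starved lines and for Birc6, with the mean and SD of each condition in black. Manba, Arsb, Ctso and Asah1 are lower and Ctsz higher in shBruce Starv than in shRenilla Starv, with no overlap of points, and Birc6 lies between 703 and 1390 in all shBruce libraries.

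The calls between starved lines were the least steady. None of the 5 passed without shRenilla Starv replicate 1 or 2 or shBruce Starv replicate 2, or when the 6 Starv libraries were fitted alone, only Manba passed without shBruce Starv replicate 1, and 14 genes passed without shBruce Starv replicate 3. The last 2 of these fits called 4.68% and 46.7% of all genes. Shares in the other fits are not given here, so the lost calls are not shown to be particular to these 5 genes. Birc6 itself passed between the starved lines in 20 of the 23 alternatives. With each library's dependence on transcript length and GC content removed, Manba (-0.79) and Arsb (-0.71) passed, while Asah1 (-0.32), Ctso (-0.52) and Ctsz (0.10) did not. shBruce Starv replicate 1 also stood apart for abundant genes, with 7935 normalized counts of Psap against 14798 and 14690 in the other shBruce Starv libraries, and 3270 of Ctsl against 6252 and 5182.

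Other genes of the pathway were counted in the same fit. Of 33 other lysosomal hydrolases, 26 passed the filter on low counts. Hyal2, a hyaluronidase, fell after starvation in shRenilla MEFs (log2 fold change -0.93) and in shBruce MEFs (-0.80), where Dnase2a (2.05), Rnaset2b (1.92) and Smpdl3a (1.01) rose. Dnase2a, an acid deoxyribonuclease, had 402, 462 and 501 normalized counts in shBruce FM and 3696, 1011 and 970 in shBruce Starv, with replicate 1 far above the others, and its rise was 1.11 on the log2 scale without that library. Its values in shRenilla MEFs were 388, 414 and 358 in FM and 662, 685 and 787 in Starv, where a log2 fold change of 0.88 did not pass (adjusted p = 0.144 from edgeR's test). Rnaset2b, a ribonuclease, had 29.7, 33.5 and 31.7 in shBruce FM and 212, 91.8 and 69.7 in shBruce Starv, and its rise was 1.33 without replicate 1. Smpdl3a passed in 7 of the 22 alternatives that tested it. Rnaset2b has a near-identical copy, Rnaset2a, so the split of reads between them is uncertain. Between the starved lines, 2 of the 26 were higher in shBruce MEFs, Rnaset2b (2.02) and Dnase2a (1.40), against 12.8% of all genes, and 6 lower, against 11.2%, led by Ctsc, a dipeptidyl peptidase (-0.88), Ctbs (-0.77) and Fuca2 (-0.61). Without shBruce Starv replicate 1 the difference of Dnase2a was 0.46 (adjusted p = 0.0516) and no longer passed, while that of Rnaset2b was 1.43 (adjusted p = 0.0483).

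Of 18 genes that tag, deliver or activate hydrolases, 3 rose in each line after starvation, against 9.69% of all genes in shRenilla and 12.4% in shBruce MEFs. They were Cln6 (0.86 in shRenilla, 0.75 in shBruce MEFs) and Cln8 (0.40 and 0.56), which carry new hydrolases out of the endoplasmic reticulum, and Gga2 (0.54 and 0.56), an adaptor for the mannose 6-phosphate receptors. In shBruce MEFs 3 fell, against 10.6% of all genes, namely Gnptab, the enzyme that makes the tag (-0.60), the receptor M6pr (-0.53) and Gga3 (-0.36). Gnptab and M6pr passed in 22 and 21 of the 23 alternatives, but Gga3 (adjusted p = 0.0498) in 6. In shRenilla MEFs the log2 fold changes of Gnptab, M6pr and Gga3 were -0.21, -0.35 and -0.20. They did not pass in edgeR's test (adjusted p = 0.293, 0.0825 and 0.271), and no gene passed the interaction. M6pr and Gga3 were lower there after starvation without overlap between libraries, against 26.5% of all genes. Between the starved lines 4 were lower in shBruce MEFs, against 11.2% of all genes. They were Sort1 (-0.93), the receptor Igf2r (-0.83), Scarb2 (-0.82), which delivers glucocerebrosidase, and Gnptab (-0.71). Gga1 was higher (0.45), against 12.8% of all genes. Scarb2 and Gnptab passed there in 18 of the 23 alternatives, Igf2r in 16, Sort1 in 15 and Gga1 in 14. Without shBruce Starv replicate 1, Sort1, Igf2r and Gga1 did not pass (edgeR's test, adjusted p = 0.0672, 0.0682 and 0.0898). Of 9 cathepsin inhibitors, 4 passed the filter. Of these 4, Cst3, cystatin C (1.06), and Cstb, cystatin B (0.39), were higher in shBruce Starv than in shRenilla Starv, against 12.8% of all genes. However, Cstb passed in 9 of the 23 alternatives. In FM none of these lists had a gene past the threshold in edgeR's test, with an unadjusted p under 0.05 in 7 of 26, 2 of 18 and 1 of 4, compared with 14.4% of all genes.

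Some counts may have gained or lost reads in bases shared with neighbours, because the strand setting of the counting was not given in the sources used here. Exons of Sgsh share 21.9% of their bases with Card14 on the opposite strand, those of Acp2 13.3% with Ddb2, those of Ctsa 13.5% with Pltp, those of Idua 3.98% with Slc26a1, and those of Arsb 48.2% with Gm26527, while those of Dpp7, Gla, Ctsf and Manba overlap no other gene in GENCODE M21. Abundant genes overlap neighbours too, with 31.5% for Ctsd (Gm49369, same strand), 28.2% for Ctsl (Gm47123, opposite strand) and 16.3% for Ctsb (Fdft1, opposite strand).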

How the data were processed

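Total RNA from MEFs expressing shRenilla or shBruce was poly(A)-enriched and sequenced as single-end reads. The authors removed rRNA reads, mapped to mm10 with STAR 2.4.0d and deposited raw counts per gene from HTSeq 0.5.4p3, and 0 columns of their table were left unused. Of its symbols, 29 had become dates (0.314% of counts), and 2 were repeated. Total counts were 7717265 to 18510540 per library.

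The counts were modelled in edgeR 4.0.16 (R 4.3.3) with TMM scaling, filterByExpr, a mean for each of the 4 conditions over all 12 libraries, the two-sided quasi-likelihood test and Benjamini-Hochberg adjustment over 12154 genes at a level of 0.05. Normalized counts are counts divided by the effective library size relative to the geometric mean. With 3 libraries against 3, the smallest two-sided exact permutation p is 0.1, so no permutation p is given per gene. Replicates differed by more than counting noise, with chi-square per degree of freedom from 2.22 to 96.0. Lengths, GC content and positions came from GENCODE M21 (GRCm38), using the principal transcript, with 22724 symbols matched directly and 934 by older symbols. Promoter windows came from RefSeq.

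The 42 genes, the other lists, the tests and the rule for named genes were chosen with earlier results of these data known. The rule gives in full up to 5 higher and 5 lower genes per comparison by size among those that passed, or, where fewer than 3 passed, the 3 higher and 3 lower with the smallest unadjusted p, also the 5 highest and lowest levels, up to 3 higher and 3 lower pathway genes per comparison, and Birc6. Further genes that passed are named with their fold change, since each count was small. Some genes of the other lists are not reported here. Epithelial markers summed to 2.12 to 44.4 and endothelial markers to 6.94 to 63.2 normalized counts over 5 genes each. The 23 alternatives were 12 fits without 1 library and 11 others, with DESeq2 1.42.0, limma 3.58.1, other scaling, other filters, only the conditions compared, a replicate block, or trends against length and GC content removed (spline with 4 degrees of freedom). Tables and figures used Python 3.11.15, pandas 2.3.3 and matplotlib 3.10.9.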

Additional observations from a re-analysis of the deposited data

How the results depend on the processing

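Of 506 refits of single genes that had passed, 0 changed direction, 409 still passed and 97 did not. These refits used all or most of the same libraries, so an unchanged direction adds little. The count after starvation of shRenilla MEFs (5) was 15 with only the conditions compared, 19 with sample quality weights, 9 with length and GC trends removed, 8 with these and the replicate block, and 3 with no filter. It was 3 to 8 when a library was left out. In shBruce MEFs the count (12) was 3 with only the conditions compared, and 8 to 16 without a library. Between lines in FM it was 2 with only the conditions compared and 14 with quality weights, and 0 under all other settings. Between the starved lines (5) it was 12 with DESeq2, 19 with quality weights, 0 with only the conditions compared, 0 with trends removed and the replicate block, and 0 to 14 without a library. The counts in this section stand without the share of all genes called in the same fit. That share differed widely between the fits for which it is given above. A larger or smaller count is therefore not shown to be particular to the hydrolase genes. The interaction count was 0 under all 22 settings that could be fitted. The causes were not tested, beyond the fewer samples and fewer residual degrees of freedom that some fits have by construction.

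The labels number the replicates 1 to 3 in each condition, but do not say whether samples of the same number were handled together. Samples of the same number did not consistently deviate together (18 correlations from -0.46 to 0.35, 5 of them over 0.1). With 3 libraries per condition, these correlations cannot decide whether handling was shared. With the replicate block the counts were 5 and 9 after starvation in shRenilla and shBruce MEFs, 0 in FM, 6 between the starved lines and 0 for the interaction. Upper-quartile normalization moved the median of all genes in shBruce MEFs after starvation from 0.02 to 0.11, and the count there to 17 with that shift. The shallow shBruce Starv replicate 1 and genes with few counts, such as Ctsk and Ctso, limit precision.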
